A study of Mus musculus with 15 samples.

Results

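Gata3, Il4, Il5, Il13, Il4ra and Stat6 were followed through 15 RNA-seq libraries of mouse regulatory T cells (Tregs). They were taken by symbol as 6 of the 24015 gene rows of the deposited count table, and all 6 passed the filter on low counts, as did 13578 genes in all. Tregs had been sorted as CD45+CD3+CD4+YFP+ cells from adult C57BL/6 mice in 5 groups of 3 libraries. All mice carried the Foxp3 cre-eyfp allele, in which the Foxp3 gene drives Cre and a yellow fluorescent protein. The controls (WT) had no other labelled allele, whereas the conditional knockouts (cKO) were Foxp3 cre-eyfp Rora fl/fl mice, in which Cre can delete floxed Rora, the gene of the nuclear receptor RORα, in Foxp3-expressing cells.

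WT Tregs came from axillary lymph nodes (WT LN), from untreated skin (WT skin) and from skin treated with MC903 (WT MC903). Tregs of cKO mice came from untreated skin (cKO skin) and from MC903-treated skin (cKO MC903), and no lymph node cells of cKO mice are analysed here. MC903 is calcipotriol, a vitamin D analogue that brings on a dermatitis with type 2 features, and it was applied 4 times, every other day, in ethanol. Untreated skin was dorsal skin with ears, whereas treated skin was ears only, and no vehicle-treated group is analysed here, so the drug, the solvent and the skin site cannot be told apart in any comparison with untreated skin. Skin was digested with enzymes for 90 minutes and the labels state no such digestion for the lymph nodes, so organ and tissue handling cannot be told apart either. The labels call the 3 libraries of a group biological replicates without tying them to single animals, and the p-values measure the spread between these libraries only.

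In type 2 immunity, IL-4 and IL-13 bind receptors that share the IL-4 receptor α chain, the product of Il4ra. That chain activates the transcription factor STAT6, which in helper T cells raises transcription of Gata3. GATA3 in turn opens the cluster that holds Il4, Il13 and Il5, and IL-5 is the growth factor of eosinophils. GATA3 is also present in many Tregs of barrier tissues.

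The 3 cytokine genes lie next to each other on chromosome 11, with Rad50 between Il13 and Il5, and they are the members with the lowest counts. The bases before their start sites are shown because transcription of all 3 is reported below and because GATA3 and STAT6 are themselves members. Each sequence is the 250 bases upstream of the start, 5′ to 3′ on the gene's strand, from RefSeq on build GRCm38.p6, with motif matches in capitals. The Il4 window is chr11:53618666-53618915 on the minus strand, the Il13 window chr11:53634703-53634952 on the minus strand, and the Il5 window chr11:53720544-53720793 on the plus strand.
Il4: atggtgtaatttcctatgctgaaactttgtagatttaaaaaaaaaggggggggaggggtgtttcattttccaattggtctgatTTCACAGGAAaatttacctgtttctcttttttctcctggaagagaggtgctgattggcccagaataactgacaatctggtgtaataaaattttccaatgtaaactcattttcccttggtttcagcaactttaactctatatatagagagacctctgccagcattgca
Il13: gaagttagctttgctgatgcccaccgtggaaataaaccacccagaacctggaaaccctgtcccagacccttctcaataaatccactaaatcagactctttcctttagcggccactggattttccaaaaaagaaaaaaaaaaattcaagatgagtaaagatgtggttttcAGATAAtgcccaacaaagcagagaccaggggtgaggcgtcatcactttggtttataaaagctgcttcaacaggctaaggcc
Il5: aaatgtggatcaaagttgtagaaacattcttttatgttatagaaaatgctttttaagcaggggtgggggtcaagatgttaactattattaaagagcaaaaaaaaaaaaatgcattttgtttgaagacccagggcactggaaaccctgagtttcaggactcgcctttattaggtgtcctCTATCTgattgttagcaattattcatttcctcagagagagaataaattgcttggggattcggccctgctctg
Both strands were searched for the GATA motif AGATAA and its variants with T first (TGATAA), with G last (AGATAG) and with both changes (TGATAG). For STAT factors the motif TTCNNNGAA was searched, and the STAT6 motif, which has 1 further base in its middle. For ROR factors the core AGGTCA was searched, and the full ROR motif, in which further bases precede that core. In the Il4 window the capitals mark the STAT6 motif, which reads the same way on both strands and begins 167 bases before the start. In the Il13 window they mark AGATAA, 81 bases before the start, and in the Il5 window they mark AGATAG on the opposite strand, 72 bases before the start. A second RefSeq start of Il4 had TGATAG 80 bases upstream, the Stat6 window held AGGTCA 169 bases upstream, and the Gata3 and Il4ra windows held no match. No member's window held the full ROR motif. Of 32851 RefSeq windows of this length, 26.5% held at least 1 of the 4 GATA motifs, 12.4% held a STAT motif, 4607 held AGGTCA and 0.177% held the full ROR motif. A match is a stretch of letters and no measured binding site.

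Libraries held between 19774723 and 27745008 counts assigned to genes. All 8 markers of the Treg gate exceeded 1 CPM (counts-per-million, the reads of a gene scaled to the size of its library) in all 15 libraries, and Foxp3 was at 16.2 to 41.8 CPM in lymph nodes and at 110.4 to 202 CPM in skin. Rora was at 1327 to 1510 CPM in WT skin and 821 to 1198 CPM in cKO skin, and at 739 to 812 CPM in WT MC903 and 473 to 632 CPM in cKO MC903. It was therefore lower in every cKO library than in every WT library of the same treatment, but not absent. These counts sum a whole gene and do not measure the deleted exons alone. Markers of other cells were present at varying levels, and those of several cell types are given beside the comparisons below.

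Gata3 was the most abundant of the 6 genes in skin and had the smallest p of the 6 between lymph node and skin. Raw counts of Gata3 were 7277, 7868 and 7855 in the WT LN libraries and 18310, 13897 and 12521 in the WT skin libraries. In cKO skin they were 23225, 25529 and 29652. They were 19402, 18125 and 21505 in WT MC903 and 23895, 18943 and 19431 in cKO MC903. Scaled for library size and composition, the WT LN mean was 251 ± 6.18 CPM (SD, n = 3), the lowest of the 5 groups, and its libraries were apart from all skin libraries. The other groups followed in the order WT skin at 718 ± 131 CPM, WT MC903 at 744 ± 82.8 CPM, cKO MC903 at 959 ± 63.8 CPM and cKO skin at 1080.4 ± 89.0 CPM (SD, n = 3 each). The libraries of WT skin and WT MC903 overlapped, and so did those of cKO MC903 and cKO skin, while both cKO groups lay above both WT skin groups.

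**Figure D1:**
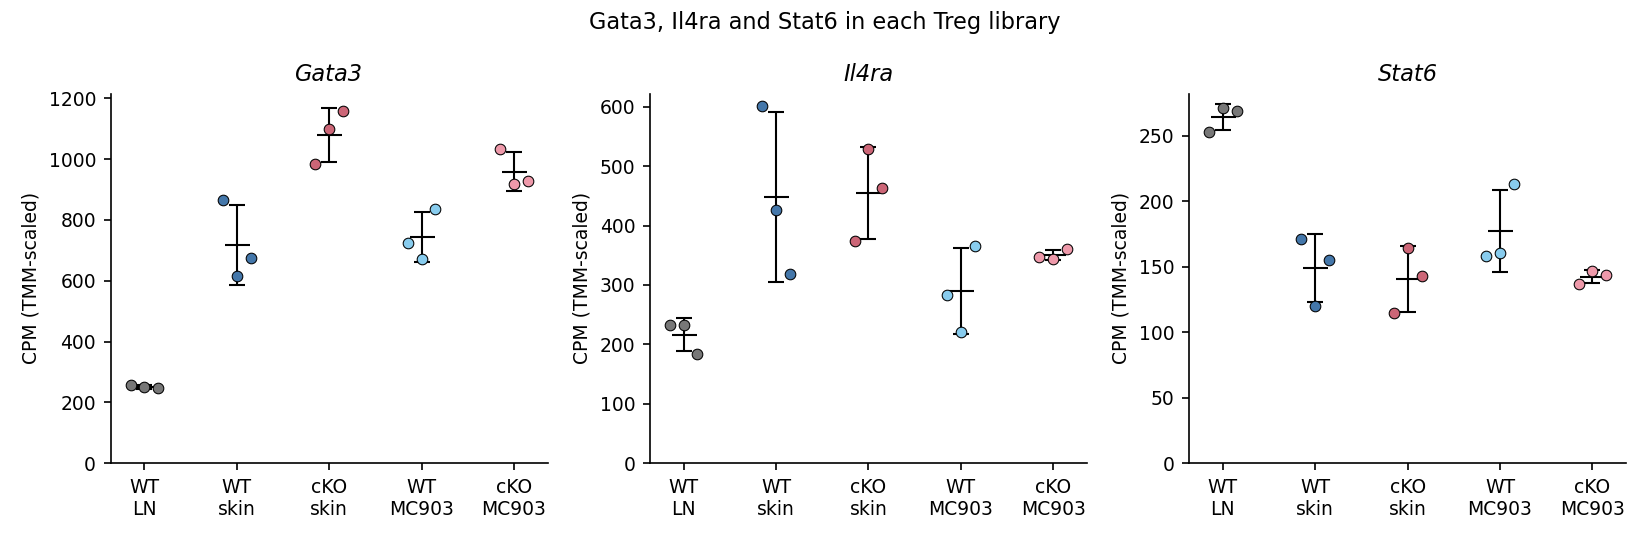
Gata3, Il4ra and Stat6 in 5 groups of Treg libraries, in CPM on a linear axis. Each point is a library and the bar with its whiskers is the group mean ± SD (n = 3). Gata3 is lowest in the lymph node at 251 CPM and highest in cKO skin at 1080.4 CPM, and Stat6 is highest in the lymph node at 265 CPM.

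Il4ra and Stat6, the receptor chain and its signalling factor, differed between lymph node and skin in opposite directions. Il4ra was at 232, 233 and 184 CPM in WT LN and at 601, 425 and 319 CPM in WT skin. All 3 skin libraries were above all 3 lymph node libraries, with the widest spread of any Il4ra group in WT skin. In the remaining groups Il4ra was at 374, 529 and 462 CPM in cKO skin, at 284, 220.3 and 366 CPM in WT MC903 and at 347, 344 and 360.5 CPM in cKO MC903. In the order of group means, from 216 ± 28.2 CPM in WT LN to 455 ± 78.0 CPM in cKO skin (SD, n = 3 each), every pair of neighbours overlapped.

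Stat6 was at 253, 271 and 269 CPM in WT LN and at 172, 120.4 and 155 CPM in WT skin. It was at 115, 165 and 143 CPM in cKO skin, at 158, 161 and 213 CPM in WT MC903 and at 137, 147 and 143.5 CPM in cKO MC903. The 4 skin groups overlapped as neighbours, with means of 141 to 177 CPM, and all 12 skin libraries were below the 3 lymph node libraries, whose mean was 265 ± 9.81 CPM (SD, n = 3).

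Per kilobase of annotated exon, which allows levels to be compared between genes, Gata3 and Stat6 stood at 63.2 and 60.1 CPM per kilobase in WT LN and Il4ra at 36.0. In WT skin the order was Gata3 at 180, Il4ra at 74.7 and Stat6 at 33.8 CPM per kilobase. Il4 stood at 0.963 CPM per kilobase in WT LN and at 2.14 in WT skin, so the cytokine messages were far below those of the receptor chain and both factors. Exon lengths came from GENCODE M21 and may differ from those of the annotation used for counting.

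The 3 cytokines were counted with at most 142 reads in any library. Il4 was detected in every library. Its raw counts were 35, 38 and 35 in WT LN and 33, 89 and 44 in WT skin. They were 120, 93 and 111 in cKO skin, 45, 53 and 30 in WT MC903 and 116, 82 and 91 in cKO MC903. Every cKO library held more Il4 CPM than every WT skin library of either treatment. The margin was narrow, with 3.93 CPM (89 reads) in the second WT skin library and 3.97 CPM (82 reads) in the second cKO MC903 library. Counting error alone could reverse the order of these libraries. The means were 1.18 ± 0.0749 CPM in WT LN, 2.62 ± 1.21 CPM in WT skin, 4.47 ± 0.549 CPM in cKO skin, 1.61 ± 0.407 CPM in WT MC903 and 4.44 ± 0.527 CPM in cKO MC903 (SD, n = 3 each).

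Il13, which acts on epithelium and macrophages, was nearly absent from lymph node Tregs. Its raw counts were 2, 1 and 0 in WT LN and 49, 95 and 48 in WT skin. They were 102, 116 and 114 in cKO skin, 5, 53 and 14 in WT MC903 and 22, 20 and 21 in cKO MC903. Ordered by mean, WT LN (0.0342 CPM) lay below WT MC903 (0.900 ± 0.942 CPM) and cKO MC903 (0.974 ± 0.0256 CPM), whose libraries overlapped. WT skin (3.03 ± 1.02 CPM) and then cKO skin (4.59 ± 0.361 CPM; SD, n = 3 each) followed, each apart from the group below it. Untreated skin therefore held the highest Il13 in both genotypes.

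Il5 was the least even member. No Il5 read was counted in WT LN, and a count of 0 over those 3 libraries allows a level of up to 0.0328 CPM. Its raw counts were 26, 100 and 0 in WT skin and 45, 142 and 0 in cKO skin. They were 71, 97 and 54 in WT MC903 and 86, 20 and 30 in cKO MC903. In each genotype 1 of the 3 untreated skin libraries held no Il5 read, at total depths of 19774723 counts in WT and 27236288 in the cKO, whereas all 6 MC903 libraries held some. Neighbouring groups in the order of mean CPM all overlapped. Counting intervals and the limit set by a count of 0 cover counting error only, since the reads carried no molecular identifiers.

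**Figure D2:**
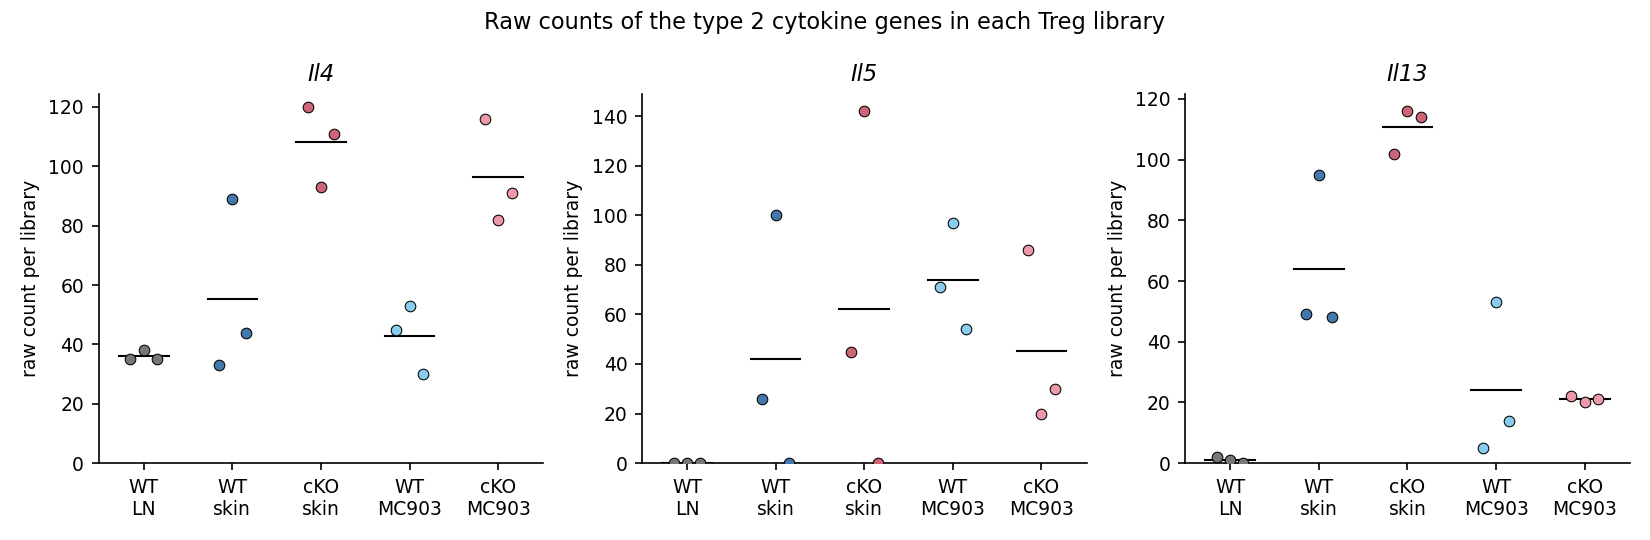
Raw read counts of Il4, Il5 and Il13 per library in the 5 groups, with a line at each group mean. Il4 is counted in all 15 libraries, Il13 reads number 3 in all in the lymph node, and Il5 is at 0 in the lymph node and in 1 library of each untreated skin group.

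The first comparison asks how Tregs of untreated WT skin differ from those of WT lymph nodes. All 6 members passed the test (edgeR's quasi-likelihood test, Benjamini-Hochberg adjusted p under 0.05 over 13578 genes), 5 higher and Stat6 lower in skin. This contrast called 57.6% of all genes, 28.8% higher and 28.8% lower, so a called gene was the more common outcome here. The libraries of the sites did not overlap for 5 of the 6 members, against 63.4% of all genes. The members' median log2 difference was 1.33, against 0.007 over all genes. Without Il5 and Il13 the median of the other 4 was 1.1. Gata3 was higher in skin by 1.51 ± 0.13 (log2 ± SE, adjusted p = 1.34e-07), a 2.86-fold difference. Il4ra was higher by 1.05 ± 0.21 (adjusted p = 0.000589), and Stat6 fell by 0.83 ± 0.16 on the log2 scale (adjusted p = 0.000326).

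The cytokine differences rested on few reads. Il13 was 94.0-fold higher in skin by pooled reads, with a 95% counting interval of 31.7 to 460-fold around a lymph node total of 3 reads, and passed the test (adjusted p = 4.80e-05). Il5 was 61.7-fold higher in WT skin by pooled reads, taking the lymph node at the floor of 3 counts over the group, with an adjusted p of 0.00893. That ratio is no lower bound, since it leaves out the counting error of the skin reads (pooled 2.02 CPM, 95% counting interval 1.68 to 2.41 CPM). It fell to 19.98-fold without the second WT skin library, which held 100 of the 126 reads. The libraries of the sites overlapped, through the WT skin library with no Il5 read, and under limma-voom with sample weights the adjusted p of Il5 was 0.176. Il5 and Il13 passed the low-count filter only through the skin libraries, so their calls against lymph node are no independent support. With the lymph node at the same floor, the pooled Il5 ratios of the other groups were 78.8-fold in cKO skin, 85.3-fold in WT MC903 and 64.1-fold in cKO MC903. The cKO skin ratio became 27.9-fold without the second library of that group and 122-fold without the third. The cKO MC903 ratio became 36.7-fold without the first library of its group. The ratios with a library left out were computed after seeing the data.

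Il4 differed less between the sites, by 1.15 ± 0.43 (log2 ± SE, adjusted p = 0.0315). The second WT skin library held 89 of the 166 Il4 reads of its group, and without it the difference was 0.73 with an adjusted p of 0.162. The Il4 call was kept under 15 of 24 alternatives and lost when any of the 3 lymph node libraries was left out (adjusted p of 0.0677 to 0.0743). The authors' deposited table gives the same contrast as lymph node minus skin, with log2 values of -1.54 for Gata3, -1.07 for Il4ra, 0.78 for Stat6, -1.11 for Il4, -1.93 for Il5 and -4.37 for Il13, and adjusted p-values of at most 0.0191. The directions match for all 6, and whether those log2 values were shrunken is not stated in the sources used here. In bulk libraries, a larger share of cells with a message and more of it per cell cannot be told apart.

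Other contents of the libraries moved with this contrast. The summed level of 9 genes that respond to tissue digestion, such as Fos and Egr1, was 477 to 515 CPM in lymph node libraries and 5388 to 7312 CPM in WT skin. Keratinocyte markers summed to 16.8 to 19.0 CPM in WT LN and 291 to 652 CPM in WT skin, and B cell markers to 175 to 628 CPM in WT LN and 7.03 to 20.9 CPM in skin. Their part in the members' differences was not tested.

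The second comparison asks what loss of Rora in Foxp3-expressing cells does to these genes in untreated skin. Gata3 rose in the cKO by 0.59 ± 0.13 (log2 ± SE, adjusted p = 0.0448), a 1.505-fold difference, and no other member passed the test. That is 1 of 6 members where the contrast called 0.803% of all genes, 0.398% higher and 0.405% lower in the cKO. By library, Gata3 was at 865, 614 and 674 CPM in WT skin and at 983, 1100.3 and 1158 CPM in cKO skin, and the groups did not overlap. The call lay close to the threshold. It was lost under 15 of 24 alternatives, was kept when leaving out 4 of the 15 libraries in turn (WT skin 1, WT MC903 2 and 3, and WT LN 3; adjusted p of 0.00919 to 0.173 over all 15), and stood at an adjusted p of 0.0587 with a replicate block.

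Il4 and Il13 were also higher in every cKO skin library than in every WT skin library, without passing the test. The margins were narrow, with nearest libraries at 3.93 CPM in WT and 4.01 CPM in cKO for Il4, and at 4.20 and 4.32 CPM for Il13. For Il4 the log2 difference was 0.77 with a 95% interval of -0.12 to 1.66 (adjusted p = 0.524), and for Il13 it was 0.60 with an interval of -0.92 to 2.11 (adjusted p = 0.813). Such separation of the 3 libraries on each side was seen for 13.6% of all genes in this contrast. Il4ra differed by 0.02 (-0.43 to 0.47), Stat6 by -0.08 (-0.41 to 0.25) and Il5 by 0.50 (-2.6 to 3.6), so the Il5 interval spans large differences in both directions.

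In MC903-treated skin, none of the 6 members passed the same test between cKO and WT. By edgeR 2 members had an unadjusted p under 0.05, as did 917 of the 13578 genes, and the contrast called 0.258% of all genes. By DESeq2 and limma-voom 0 members were called, with 140 and 95 genes called in all. Il4 was at 1.68, 1.97 and 1.17 CPM in WT MC903 and at 5.01, 3.97 and 4.34 CPM in cKO MC903. All 3 cKO libraries lay above the highest WT library. The log2 difference was 1.47 ± 0.43 (95% interval 0.56 to 2.37, adjusted p = 0.287). Gata3 was at 725, 673 and 835 CPM in WT MC903 and at 1033, 918 and 926 CPM in cKO MC903, again without overlap, with a log2 difference of 0.37 ± 0.13 (0.09 to 0.64, adjusted p = 0.492). Stat6 was lower in all 3 cKO libraries than in all 3 WT libraries, by -0.32 (-0.65 to 0.01, adjusted p = 0.777). Separation of the libraries was seen for 16.0% of all genes in this contrast. Il4ra differed by 0.27 (-0.18 to 0.72), Il13 by 0.11 (-1.44 to 1.67) and Il5 by -0.45 (-3.54 to 2.65).

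Averaged over both treatments, Gata3 was the member called, higher in the cKO by 0.48 ± 0.09 (log2 ± SE, adjusted p = 0.0106), a 1.39-fold difference. The averaged contrast called 1.75% of all genes, 0.884% higher in the cKO. The Gata3 call held when each of the 15 libraries was left out in turn (adjusted p of 0.00224 to 0.0388). It was lost without the 3 libraries richest in macrophage and dendritic cell markers (the second cKO MC903, the third WT skin and the third WT LN library; adjusted p = 0.0618). Another alternative left out the 3 libraries richest in mast cell proteases (the first WT MC903 and the first and second cKO MC903 libraries). Both alternatives were chosen after seeing the data. The second kept only the third cKO MC903 library in its group, without replicates, so only the size of the difference is read from it. Over all alternatives the log2 value of Gata3 stayed between 0.43 and 0.56. Il4 was higher by 1.12 ± 0.30 (95% interval 0.48 to 1.75) with an adjusted p of 0.0820. DESeq2 called Il4 (adjusted p = 0.00877), as did limma-voom (0.0188) and the edgeR fit without the second WT skin library (0.0321).

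**Figure D3:**
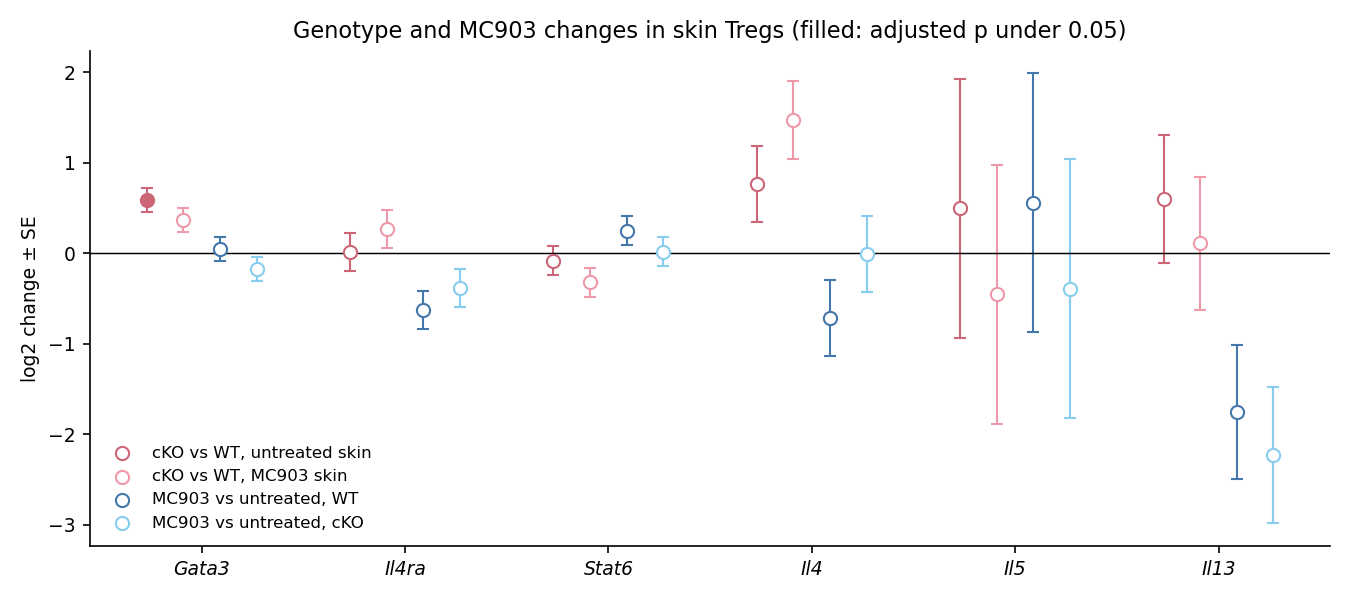
Log2 differences of the 6 members in 4 contrasts among skin groups (cKO against WT in untreated and in MC903 skin, and MC903 against untreated in WT and in cKO), each with its SE. Filled points passed the test, and Gata3 in cKO against WT untreated skin, at 0.59 ± 0.13, is the filled one.

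An exact permutation of genotype within treatment, which needs no count model, was run for all 6 members over 400 arrangements, the smallest attainable two-sided p being 0.005. Gata3 reached that smallest p, with 731 ± 99.2 CPM in 6 WT and 1020 ± 96.0 CPM in 6 cKO skin libraries (SD), the cKO range of 918 to 1158 CPM lying above the WT range of 614 to 865 CPM (exact permutation p = 0.005). Il4 reached it too, with 2.11 ± 0.979 CPM against 4.46 ± 0.482 CPM and ranges of 1.17 to 3.93 CPM and 3.97 to 5.08 CPM (exact permutation p = 0.005). These Il4 levels rest on 294 reads in 6 WT and 613 reads in 6 cKO libraries, and the gap between the Il4 ranges is smaller than the counting error of a library. All 6 cKO libraries lay above all 6 WT skin libraries for 0.435% of all genes, and the cKO libraries lay above the WT libraries within each treatment for 1.38%. Both shares count only genes higher in the cKO, whereas the permutation p is two-sided. The other members did not reach an exact permutation p of 0.05, with 0.52 for Il4ra, 0.155 for Stat6, 0.97 for Il5 and 0.14 for Il13.

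Markers of cells that make much IL-4 were read beside these values. The 4 mast cell proteases Cpa3, Mcpt4, Cma1 and Tpsb2 summed to 0, 0.0431 and 0 CPM in cKO skin, where Il4 was at 5.08, 4.01 and 4.33 CPM. In WT skin they summed to 0, 12.6 and 0.646 CPM, the highest in the second library, which also held the most Il4, Il5 and Il13 of its group. They summed to 38.8, 0.705 and 5.71 CPM in WT MC903 and to 25.2, 37.0 and 6.58 CPM in cKO MC903. In WT MC903 the order was the other way, since the second library, with the lowest sum, held the most Il4, Il5 and Il13 reads of its group, and the first, with the highest, held the fewest Il13 reads. The full list of mast cell markers summed to 30.5 to 37.5 CPM in WT skin and 19.3 to 29.6 CPM in cKO skin, mostly as Kit and Hdc. It summed to 42.0 to 72.9 CPM in WT MC903 and 46.2 to 77.5 CPM in cKO MC903, where the 4 proteases alone reached 38.8 and 37.0 CPM. Basophil markers summed to at most 0.861 CPM in untreated skin, to 1.12 to 6.33 CPM in WT MC903 and to 1.69 to 4.80 CPM in cKO MC903. The part of mast cells and basophils in the Il4, Il5 and Il13 reads was not tested.

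Markers of CD8, NK, γδ and innate lymphoid cells differed between the genotypes. They summed to 97.8 to 119 CPM in WT skin and 182 to 253 CPM in cKO skin, and to 44.6 to 58.6 CPM in WT MC903 and 137 to 173 CPM in cKO MC903, mostly as Nkg7. Of the 10 markers, 5 were under 1 CPM in all cKO skin libraries, and 4 in all libraries of each other skin group. Among these were the NK cell genes Ncr1 and Klrb1c, at most at 0.223 CPM in any skin library. The other markers exceeded 1 CPM in at least 1 library of the group. Macrophage and dendritic cell markers summed to 17.5 to 67.0 CPM in WT MC903 and 92.5 to 244 CPM in cKO MC903. The part of either in the Gata3 and Il4 differences was not tested.

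The third question is how the members differ between MC903-treated and untreated skin. No member passed the test in either genotype, although the contrast called 10.5% of all genes in WT and 11.3% in cKO Tregs. In WT, 2 members had an unadjusted p under 0.05 by edgeR, as did 3465 of the 13578 genes. DESeq2 and limma-voom each called 1 member in WT, and 2048 and 1182 genes in all. In the cKO, 1 member had an unadjusted p under 0.05, as did 3674 genes. The other tools each called 1 member there. DESeq2 called 1115 genes higher and 1092 lower in that contrast, and limma-voom 1373 higher and 1295 lower. The member nearest to a call was Il4ra in WT and Il13 in the cKO. Il13 had the larger difference of the pair in both genotypes, and its 6 MC903 libraries held 5 to 53 reads where the 6 untreated skin libraries held 48 to 116.

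In the cKO, Il13 was at 4.32, 5.0 and 4.45 CPM in untreated and at 0.951, 0.97 and 1.0 CPM in MC903 skin. The groups were far apart, with a log2 difference of -2.23 ± 0.75 (95% interval -3.82 to -0.64, adjusted p = 0.0667). DESeq2 called it (-2.25, adjusted p = 0.0153), and so did limma-voom (adjusted p = 0.00466) and the fit on the compared groups alone (0.0122). Leaving out the first or the second WT MC903 library or the third WT LN library also gave a call (adjusted p of 0.0402, 0.0374 and 0.0465), although those libraries enter this contrast only through the shared fit.

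In WT, Il13 was at 2.32, 4.2 and 2.58 CPM in untreated and at 0.187, 1.97 and 0.54 CPM in MC903 skin, with a log2 difference of -1.75 ± 0.74 (-3.32 to -0.18, adjusted p = 0.148). The second WT MC903 library held 53 of the group's 72 Il13 reads, and without it the difference was -3.04 (adjusted p = 0.0311). Limma-voom gave -2.36 (adjusted p = 0.0339). The test of whether the Il13 difference depended on genotype gave -0.48 ± 1.02 (adjusted p = 0.967), so no difference between the genotypes was shown. Complete separation of MC903 from untreated libraries was seen for 28.2% of all genes in WT and 33.4% in the cKO.

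Il4ra was lower in MC903 skin by -0.63 (-1.08 to -0.18, adjusted p = 0.0701) in WT and by -0.38 (-0.83 to 0.07, adjusted p = 0.268) in the cKO. The WT value was called by DESeq2 (adjusted p = 0.0246) and by edgeR without the third WT skin library (0.0206) or the third WT MC903 library (0.0414). Il4 differed by -0.71 (-1.61 to 0.19) in WT and by -0.01 (-0.90 to 0.87) in the cKO. Il5 differed by 0.56 (-2.54 to 3.66) and -0.39 (-3.48 to 2.71), Gata3 by 0.05 (-0.22 to 0.33) and -0.17 (-0.45 to 0.10), and Stat6 by 0.25 (-0.08 to 0.58) and 0.02 (-0.31 to 0.35). The digestion genes summed to 2092 to 2486 CPM in WT MC903 and 1883 to 2587 CPM in cKO MC903, below the 5388 to 7312 and 4883 to 6398 CPM of untreated WT and cKO skin. Keratinocyte markers summed to 101 to 432 CPM in WT MC903 and 48.4 to 198 CPM in cKO MC903, against 291 to 652 and 231 to 426 CPM in untreated skin. Fibroblast and endothelium markers summed to 112 to 314 and 159 to 329 CPM, against 76.2 to 104 and 37.7 to 161 CPM, in the same order. The part of these genes in the members' differences was not tested.

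No difference of the genotype effect between the treatments was detected for any of the 6 members. The interaction was 0.70 ± 0.59 for Il4 (log2 ± SE, 95% interval -0.56 to 1.96, adjusted p = 0.921) and -0.22 ± 0.18 for Gata3 (-0.61 to 0.17, adjusted p = 0.915). It was -0.95 ± 2.02 for Il5 and -0.48 ± 1.02 for Il13, so large differences of either sign lie within their intervals, and adjusted p-values for the others lay between 0.938 and 0.967. By edgeR 0% of all genes were called, 0 members had an unadjusted p under 0.05, 765 genes did, and DESeq2 called 17 genes and 0 members.

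The neighbours of the cytokine genes on chromosome 11 were read as a local reference. The order on the chromosome is Sept8, Kif3a, Il4, Il13, Rad50, Il5, Irf1 and Slc22a5. Rad50, a DNA repair gene whose body holds the control region of the cluster, was at 66.1 CPM in WT LN and at 29.1 CPM in WT skin, the reverse order of the cytokines. Kif3a, a kinesin motor gene next to Il4, was at 9.26 CPM in WT LN, 39.6 CPM in WT skin and 38.0 CPM in cKO skin. It was at 25.6 CPM in both MC903 groups. Sept8, a septin gene, was at 2.43 ± 1.48 CPM in WT LN, at 9.27 ± 2.36 and 4.32 ± 0.558 CPM in WT and cKO skin and at 6.12 ± 1.77 and 3.14 ± 0.883 CPM in WT and cKO MC903 (SD, n = 3 each). Its mean was lower in the cKO under both treatments, the direction opposite to that of Il4, without a call (averaged log2 difference of -1.03 ± 0.32, adjusted p = 0.158). Irf1, an interferon-response factor, was at 366 CPM in WT LN, at 449 and 528 CPM in WT and cKO skin and at 201 and 240 CPM in WT and cKO MC903.

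**Figure D4:**
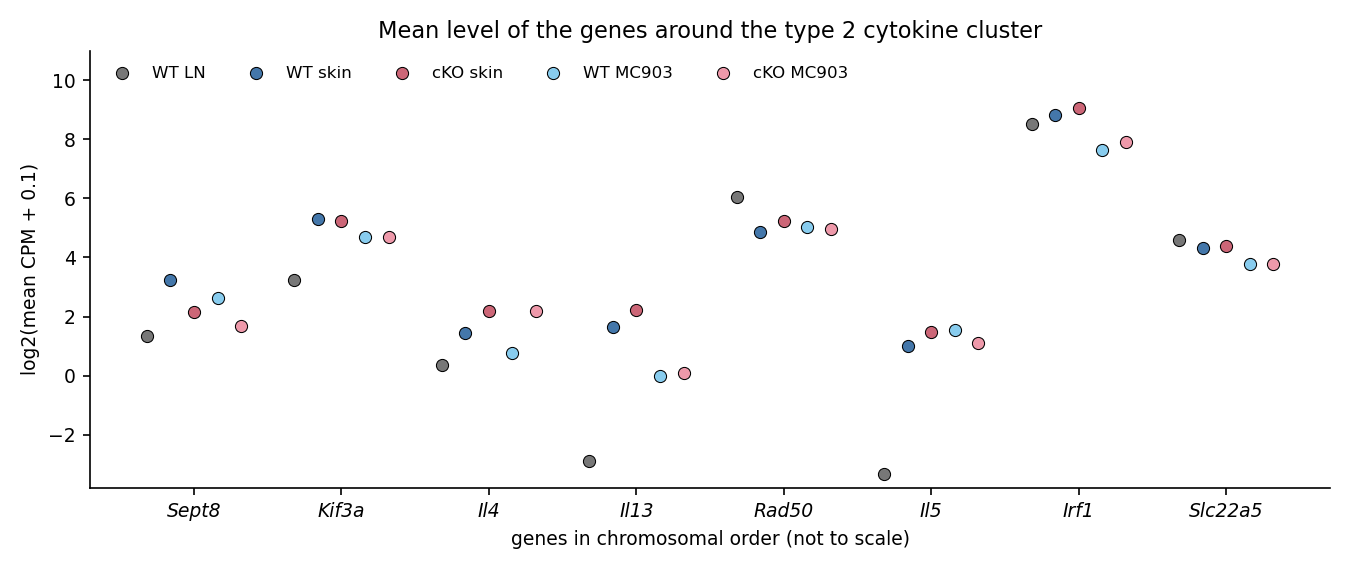
Group mean levels of 8 neighbouring genes on chromosome 11, in chromosomal order, as log2(CPM + 0.1). Il4, Il13 and Il5 lie below Kif3a, Rad50, Irf1 and Slc22a5 in every group, and lymph node Tregs have the lowest values of the 3 cytokines but the highest value of Rad50.

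Of 71 other genes of the type 2 pathway in 6 lists, 65 were tested. The lists were chosen with earlier results of these data known. Their shares beside those of all genes, here and in the genotype and MC903 contrasts below, are therefore descriptions and no test of enrichment. Between WT skin and lymph node, 37 were higher, 9 lower and 19 not called, or 70.8% called against the 57.6% of all genes, with a median of 1.18. Among cytokines, only 4 of 10 could be tested, and 3 of these (75.0%) rose in skin. Csf2, among the 3, was at 1.78 ± 2.54 CPM in skin and 0.0448 ± 0.0390 CPM in lymph node (SD, n = 3 each). It passed the low-count filter only through skin libraries, so its call, and with it the share of 75.0%, is no independent support. Il10, an inhibitory cytokine, was at 552 ± 5.94 CPM in skin and 2.77 ± 0.892 CPM in lymph node (SD, n = 3 each). Areg, an epidermal growth factor family ligand known for tissue repair by Tregs, was at 412 ± 95.3 CPM in skin and 5.60 ± 1.28 CPM in lymph node. Both were thus far more abundant in skin Tregs than Il4, Il5 or Il13. Il25 and Il31 were at 0 counts in all libraries, and Il3, Il9, Il24 and Tslp had at most 5, 13, 47 and 11 counts in any library.

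Of 12 receptor chains, 4 were higher and 8 not called. That is 33.3% called, below the 57.6% of all genes. The 4 higher chains included Il1rl1, the IL-33 receptor, at 670 ± 89.6 CPM in skin and 22.8 ± 3.61 CPM in lymph node. Crlf2, a chain of the TSLP receptor, was also among them, with a difference of 0.78 ± 0.14 (log2 ± SE, adjusted p = 0.000182). Of 13 JAK, STAT and feedback genes, 84.6% were called. In this list 9 were higher, led by Cish, a STAT5-induced inhibitor, at 2.05 ± 0.10, Stat3 at 2.23 ± 0.14 and Jak2 at 3.73 ± 0.24. The kinase genes Jak3 (-0.86 ± 0.26) and Tyk2 (-0.62 ± 0.25) were lower, as was Stat6. Of 15 transcription factors of the Th2 programme, 10 were higher and 3 lower (86.7% called). Maf, an activator of Il4, differed by 2.18 ± 0.17 and Batf, an AP-1 factor, by 1.90 ± 0.16.

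Of 10 factors of opposing lineages and cofactors, 4 were higher and 3 lower (70.0% called, against the 57.6% of all genes). Tbx21, which encodes T-bet, the Th1 factor that opposes GATA3, was higher in skin by 1.3 ± 0.27 (adjusted p = 0.000678), so Gata3 and Tbx21 were both higher in skin. Tcf7 and Lef1, factors of naive and central memory T cells, were lower by -4.92 ± 0.38 and -3.56 ± 0.18. Of 11 surface and effector genes associated with Th2 cells, 7 were higher and 1 lower (72.7% called). The higher ones included the chemokine receptor gene Ccr3 at 4.02 ± 0.30.

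Between genotypes few of these genes moved. In untreated skin 1 was higher and 2 lower in the cKO (4.62% of the 65, against 0.803% of all genes). Satb1, a chromatin organizer that takes part in folding the Th2 cytokine cluster, rose from 30.8 ± 6.66 to 131 ± 37.5 CPM (SD, n = 3 each; adjusted p = 0.00886). Runx1, a factor that restrains Gata3 in T cells, fell from 84.2 ± 2.20 to 45.8 ± 7.53 CPM (adjusted p = 0.00996). Cxcr6, a chemokine receptor gene, fell from 611 ± 174 to 316 ± 57.6 CPM (adjusted p = 0.0438). In MC903 skin 1 of the 65 was called (1.54%, against 0.258% of all genes), Tbx21, at 3.50 ± 0.607 CPM in WT and 10.2 ± 2.03 CPM in the cKO (adjusted p = 0.0233).

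Averaged over treatments, 4 were higher and 2 lower in the cKO (9.23% of the 65, against 1.75% of all genes). The higher genes were Satb1 (1.59 ± 0.24), Tbx21 (1.08 ± 0.19), Ccr3 (1.11 ± 0.19) and Irs2 (0.84 ± 0.18), the last an adaptor of the IL-4 receptor. Runx1 (-0.71 ± 0.11) and Stat5a (-0.39 ± 0.10), which encodes a factor activated by IL-2, were lower. Ccr3 was at 54.4 ± 6.36 CPM in WT skin, 116 ± 26.4 CPM in cKO skin, 61.8 ± 25 CPM in WT MC903 and 135 ± 26.7 CPM in cKO MC903 (SD, n = 3 each), with both cKO groups above both WT skin groups in mean, as for Gata3 and Il4. Ccr3 also marks eosinophils, and nearly all of the eosinophil marker signal in these libraries was Ccr3 itself.

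With MC903, 10 of the 65 were higher and 12 lower in WT, and 9 higher and 13 lower in the cKO (33.8% called in each, against 10.5% of all genes in WT and 11.3% in the cKO). In WT, Il10 fell from 552 ± 5.94 to 202 ± 25.6 CPM (adjusted p = 6.12e-05) and Areg from 412 ± 95.3 to 168 ± 23.0 CPM (adjusted p = 0.00148), so 2 abundant cytokine genes were lower where Il13 too had its lower values. Tbx21 differed by -3.13 ± 0.29 and Junb, an AP-1 subunit and Il4 activator, by -1.14 ± 0.20. Tnfrsf8, which encodes CD30, was higher by 2.05 ± 0.33, Epas1, which encodes HIF-2α, by 1.77 ± 0.34, and Satb1 by 1.79 ± 0.34.

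In the cKO, Areg (-1.34 ± 0.21), Il10 (-0.81 ± 0.15), Tbx21 (-2.20 ± 0.28) and Junb (-1.27 ± 0.20) were again lower. Tnfrsf8 (1.4 ± 0.32) and Epas1 (1.89 ± 0.34) were again higher. Socs1, a feedback inhibitor of IL-4 signalling, fell from 645 ± 61.3 to 211 ± 51.2 CPM (adjusted p = 0.0119). The interaction called 0 of the 65 genes, so no difference between genotypes in these responses was shown.

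The genes whose levels were most like each member's were taken by Pearson's r of log2 CPM over the 12 skin libraries, which share genotype and treatment differences, so the r values are descriptions. For Gata3 these were Il6st (r = 0.956), which encodes the gp130 receptor chain, Il10ra (0.922), a chain of the IL-10 receptor, and Katnbl1 (0.919). For Il4 they were Lgals3 (0.918), which encodes galectin-3, Ccl27a (0.896) and Lbh (0.850), and for Il13 they were Rasgrp4 (0.949), Lonrf3 (0.938) and Tbc1d16 (0.937). For Il4ra they were Cdip1 (0.896), Ndel1 (0.893) and Actg1 (0.891), for Stat6 Ibtk (0.951), Hspa2 (0.924) and Trpc4ap (0.923), and for Il5 Dync2li1 (0.895), Hpgd (0.886) and Ndor1 (0.882). Some of these genes were themselves low, with means of 0.849 CPM for Dync2li1, 0.704 CPM for Hpgd and 1.18 CPM for Ccl27a. All were picked for the highest r over many tested genes. No member was among the genes named for another, since members were left out of the search. Over all 15 libraries Katnbl1 (0.988) for Gata3, Ndel1 (0.927) for Il4ra and Trpc4ap (0.950) for Stat6 were named again, whereas the 3 genes named for each cytokine were different ones.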

How the data were processed

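Tregs of 5 groups of 3 libraries were measured by SMART-Seq v4 RNA-seq with 75 bp single-end reads, per the labels. The authors deposited raw read counts per gene, made with TopHat2 2.0.6 on mm9 per the submitters' processing notes; the counter, its annotation and its use of strand are not given in the sources used here. The authors' deposited comparison of lymph node with skin gives log2 values, a base mean signal, statistic scores and p-values; the notes name DESeq2.

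Members and lists were chosen with earlier results of these data known. One fit over 15 libraries used edgeR 4.0.16 in R 4.3.3 (filterByExpr, TMM, robust quasi-likelihood test), with Benjamini-Hochberg adjustment over 13578 genes and a call at an adjusted p under 0.05. CPM used effective library sizes, and 95% intervals the quantile of the same test. DESeq2 1.42.0, limma-voom (limma 3.58.1), other filters and scalings, the compared groups alone, a replicate block and leaving out each library were alternatives. The fit was run on simulated data with less spread between libraries than the common dispersion found here (0.138). The simulated differences were larger than that of Gata3 between genotypes, so the run does not show how the fit performs for the members. Named genes are the members, up to 3 called genes a list and direction with the smallest adjusted p (or the gene with the smallest p), and the 3 genes most correlated with each member; not every one is printed.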

Additional observations from a re-analysis of the deposited data

How the results depend on the processing

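Over 1019 recomputed values, 936 kept their direction and side of the threshold, 27 lost a call, 15 gained one and 41 changed sign, 0 of the last with a call under the alternative. Members called between WT skin and lymph node (6) numbered 4 to 6 (4 with the compared groups alone, where Il5 failed the filter, and 4 with limma-voom; 5 to 6 leaving out each library). In cKO against WT untreated skin (1) they numbered 0 with the compared groups alone, with the replicate block, and without the libraries richest in macrophage and dendritic cell markers (0 to 1 leaving out each library). Leaving out the libraries richest in mast cell proteases kept only the third cKO MC903 library in its group, so no counts of calls are given for that alternative. With MC903 in WT (0) they numbered 1 with DESeq2, limma-voom and without the macrophage-rich libraries, and with MC903 in the cKO (0) 1 with DESeq2, the compared groups alone and limma-voom (0 to 1 leaving out each library in both). Averaged over treatments (1) they numbered 2 with DESeq2 and limma-voom and 0 without the macrophage-rich libraries (1 to 2 leaving out each library). The cause of these changes was not tested.

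Genes called in all also moved. In cKO against WT untreated skin 109 became 323 with DESeq2 and 60 to 133 leaving out each library. In MC903 skin 35 became 140 with DESeq2, 95 with limma-voom and 22 without the macrophage-rich libraries (22 to 52). With MC903 in WT 1421 became 541 with the compared groups alone (767 to 1543). In the cKO 1529 became 2668 with limma-voom and 852 without the macrophage-rich libraries (645 to 1896). Averaged over treatments 237 became 462 with DESeq2 (159 to 266). For the interaction 0 became 17 with DESeq2 (0 to 1).

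Sign changes touched differences that were not called. Without the macrophage-rich libraries Il4ra (-0.17) and Il5 (-0.08) reversed in cKO against WT untreated skin, as did Il5 with MC903 in WT (-0.02), Stat6 (0.00) and Il4 (0.06) with MC903 in the cKO, and Il5 averaged over treatments (-0.10). Without the protease-rich libraries Il13 in cKO against WT MC903 skin (-0.33) and Il5 averaged over treatments (-0.23) reversed. Limma-voom reversed Stat6 (-0.01), Il4 (0.02) and Il5 (1.97) with MC903 in the cKO and the Il13 interaction (0.14). Leaving out each library gave ranges across 0 in cKO against WT untreated skin for Il4ra (-0.17 to 0.29), Stat6 (-0.21 to 0.05) and Il5 (-0.99 to 2.10), and for Il13 in MC903 skin (-0.38 to 1.4). With MC903 they did so in WT for Gata3 (-0.05 to 0.21) and Il5 (-0.02 to 2.16), and in the cKO for Stat6 (-0.11 to 0.14), Il4 (-0.11 to 0.09) and Il5 (-1.15 to 1.10). The interactions of Il4ra (-0.02 to 0.45), Il5 (-2.54 to 0.54) and Il13 (-1.0 to 0.81) and averaged Il5 (-0.72 to 0.83) did so too. The Il5 genotype difference in the permutation test was 0.0231 CPM, -0.0717 as log2(CPM + 1) and -0.838 to 0.692 CPM leaving out each library.

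Over all tested genes, libraries of the same replicate number did not deviate together (30 pairs, r of -0.277 to 0.223, median 0.011). This check cannot show that the libraries are unpaired or share no batch. Raw Il5 counts followed the number in untreated skin of both genotypes (26, 100 and 0 in WT, 45, 142 and 0 in cKO). They did not in MC903 skin (71, 97 and 54 in WT, 86, 20 and 30 in cKO). With the number as a replicate block, Il5 with MC903 in the cKO reversed (0.86) and Gata3 in untreated skin was no longer called. Cytokine counts of 0 to 142 a library limit every Il4, Il5 and Il13 comparison.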
